A study of Mus musculus with 20 samples.

Results

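The 10 mitochondrially encoded transcripts described here are the complex I mRNAs mt-Nd1, mt-Nd2, mt-Nd4 and mt-Nd5, the complex IV mRNAs mt-Co1, mt-Co2 and mt-Co3, the ATP synthase mRNA mt-Atp6, and the ribosomal RNAs mt-Rnr1 and mt-Rnr2. They were chosen by name and matched by Ensembl ID, 10 of the 63318 genes in the count table. Short reads were made from Trizol-extracted poly(A) RNA of mouse hearts, in 4 groups of 4 libraries each. MI hearts were taken after myocardial infarction, 72 h after surgery, from the infarct core and the tissue around it, and MISham hearts are the sham-operated set from the same region. IR hearts, with tissue from the infarct core, underwent 40 min of "LCA" (not spelled out in the labels) and 72 h of reperfusion, and IRSham hearts are their sham-operated set. Kind of injury and region sampled therefore cannot be told apart between MI and IR. The labels give no strain, sex or age and do not say whether libraries are separate animals, so the spread that p-values rest on is that of libraries and may be technical.

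The mitochondrial genome is a small circle present in many copies per cell. It encodes core subunits of complexes I, III and IV and of ATP synthase, together with the rRNAs and tRNAs of the organelle's own ribosomes. Long polycistronic transcripts are cut at the tRNAs into mature RNAs, and some mRNAs then gain the last bases of their stop codon from the added A tail. All other respiratory chain subunits, and the whole machinery that transcribes, processes and stabilises mitochondrial RNA, come from nuclear genes. Cardiomyocytes are among the cells richest in mitochondria.

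Fragments of mitochondrial DNA copied into the nuclear genome can carry the same letters as the genes they came from, and 5 members have such a copy on chromosome 1. The sequences below are shown because they set which members a short read can tell from a nuclear gene. They were read by transcript ID from GENCODE M21, a GRCm38 annotation, while the deposited tables use GRCm39, so no coordinates are given. All 681 bases of the pseudogene Gm28661 matched mt-Co2 with no mismatch. Capitals mark the start codon.
mt-Co2: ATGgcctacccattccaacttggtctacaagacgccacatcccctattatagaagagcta
Gm28661: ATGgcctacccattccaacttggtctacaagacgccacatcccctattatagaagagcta
The 678 bases of Gm10925 and the 783 bases of Gm28437 likewise matched mt-Atp6 and mt-Co3 without a mismatch. The 876 bases of Gm28439 matched the first 876 of the 1378 bases of mt-Nd4. In the window around the point where that copy stops, capitals mark the letters both share.
mt-Nd4: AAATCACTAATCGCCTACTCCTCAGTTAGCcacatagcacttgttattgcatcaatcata
Gm28439: AAATCACTAATCGCCTACTCCTCAGTTAGC
Gm29216 aligned with 492 bases at the end of mt-Co1, with 6 mismatches at its start and an identical run of 479 bases after them. The mismatches, in capitals, are T1056A, C1057T, A1059G, A1060G, C1062A and A1066T, counted from 1 at the first base of the mt-Co1 transcript, with the mt-Co1 base first.
mt-Co1: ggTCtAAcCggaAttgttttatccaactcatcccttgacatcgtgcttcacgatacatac
Gm29216: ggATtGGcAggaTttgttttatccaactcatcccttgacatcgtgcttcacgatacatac
Of all windows of 100 bases, the share also found in a nuclear transcript was 99.9% for mt-Co3, 99.5% for mt-Co2, 99.5% for mt-Atp6, 60.8% for mt-Nd4, 30.8% for mt-Co1 and 3.19% for mt-Nd2. It was 0% for mt-Nd1, mt-Nd5, mt-Rnr1 and mt-Rnr2. How reads that match both places were counted is not stated in the labels or file headers, so values of mt-Co2, mt-Co3, mt-Atp6 and mt-Nd4 are uncertain as levels.

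The gene models behind the counts add another limit. For 7 of 10 members the model in the count table is longer than the transcript, by 314 to 1723 bases, and the table does not say which bases it covers. The excess is largest for mt-Nd5, at 3547 bases against 1824 for its transcript, and 3547 bases is also the distance from the start of mt-Nd5 to the end of mt-Cytb in GENCODE M21. mt-Cytb, the complex III mRNA, is listed at 0 counts in all libraries, so counts of mt-Nd5 may include reads of mt-Cytb, and counts of the other 6 may include reads of neighbouring genes. Their levels, and the ratios between members given further on, are uncertain in that respect.

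Library totals ran from 57.2 to 63.1 M counts in MI, against 24.3 to 27.6 M counts in MISham, and from 26.2 to 31.8 M counts in IR, against 25.5 to 29.8 M counts in IRSham. Every MI library thus held more counts than any other library, and the part of depth in the results was not tested. Cardiomyocyte markers were present in every group, with no member of that list at 0. CPM, counts per fixed number of counts in the library, were computed with TMM, a scaling that assumes most genes keep their level. All 10 members passed the filter on low counts.

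Every member fell after both injuries. In MI against MISham 10 of 10 members were called lower, where 30.2% of all 19741 genes tested were. In IR against IRSham 10 of 10 were called lower, where 28.2% of all genes were. Every MI library lay below every MISham library for 10 of 10 members, where that held for 28.6% of all genes tested, and every IR library below every IRSham library for 10 of 10, where it held for 25.4%. The median log2 fold change over the 10 members was -2.22 in MI against MISham, beside 0.08 over all genes, and -1.83 in IR against IRSham, beside 0.03 over all genes. In bulk tissue, fewer cells of a type and less RNA per cell cannot be told apart. Called here means an adjusted p under 0.05 in the quasi-likelihood test of edgeR, with Benjamini-Hochberg adjustment over all genes.

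**Figure D1:**
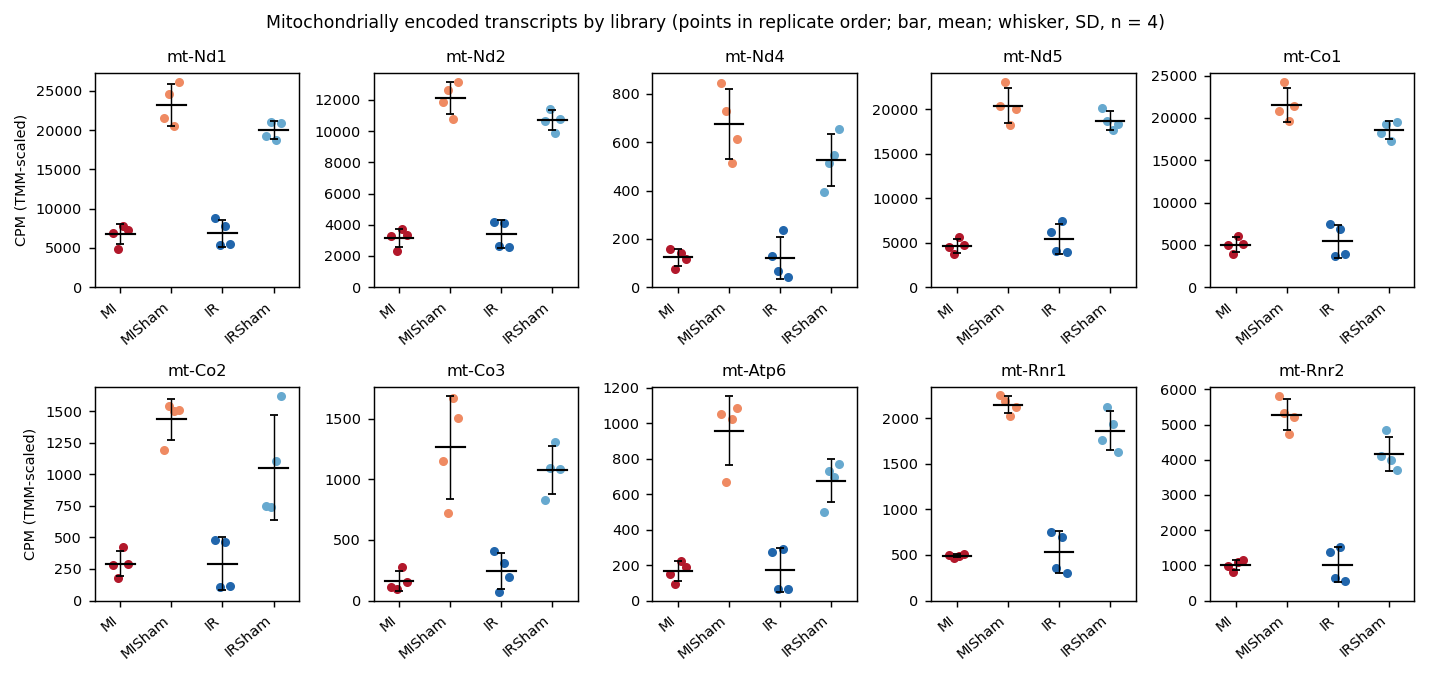
CPM of each member by library, one panel per member, each with its own vertical axis from 0. Points are libraries, bars are means and whiskers are SD (n = 4 per group). In all 10 panels every MI library lies below every MISham library and every IR library below every IRSham library, and IR libraries spread into a higher and a lower pair.

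The complex I members were led by mt-Nd1, a subunit of the membrane arm of the complex. It had 6969, 4906, 7785 and 7322 CPM in MI libraries, against 21521, 24586, 20559 and 26199 CPM in MISham libraries. In IR libraries it had 8822, 5410, 7807 and 5485 CPM, against 19318, 21077, 18770 and 20985 CPM in IRSham libraries. In both pairs every injured library was far below every sham library. The MI mean was 29.1% of the MISham mean, a log2 fold change of -1.78 ± 0.20 (SE), and the IR mean was 34.3% of the IRSham mean, a log2 fold change of -1.54 ± 0.19. Adjusted p-values by edgeR were 4.06e-07 in MI and 3.17e-06 in IR.

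mt-Nd5, another membrane arm subunit, had 4474, 3749, 5625 and 4694 CPM in MI libraries, against 20396, 23087, 18228 and 19994 CPM in MISham libraries. It had 6243, 4080, 7442 and 3942 CPM in IR libraries, against 20160, 18635, 17627 and 18402 CPM in IRSham libraries. Its log2 fold change was -2.14 ± 0.21 in MI and -1.79 ± 0.20 in IR. mt-Nd2 averaged 3153 ± 601 CPM in MI and 12117 ± 1029 CPM in MISham (SD, n = 4 each), a log2 fold change of -1.94 ± 0.19. In IR it averaged 3382 ± 895 CPM, and in IRSham 10696 ± 627 CPM, a log2 fold change of -1.66 ± 0.19. mt-Nd4 had the lowest counts per base of the set, with 77.0 to 158.2 CPM in MI against 512.6 to 845.2 CPM in MISham, and 43.7 to 237.8 CPM in IR against 393.5 to 655.8 CPM in IRSham. Its fold change had a wider error, -2.45 ± 0.43 in MI and -2.14 ± 0.43 in IR on the log2 scale.

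Among complex IV members, mt-Co1, the catalytic subunit of cytochrome oxidase, had 5033, 3960, 6063 and 5124 CPM in MI libraries, against 20867, 24251, 19604 and 21408 CPM in MISham libraries. In IR libraries mt-Co1 had 7418, 3633, 6832 and 3938 CPM, against 18168, 19311, 17325 and 19497 CPM in IRSham libraries. The groups of each pair stood far apart, with log2 fold changes of -2.09 ± 0.22 in MI and -1.77 ± 0.22 in IR. mt-Co2, which carries the copper site that takes electrons from cytochrome c, had 280.0, 176.0, 424.1 and 290.8 CPM in MI libraries, against 1195, 1539, 1498 and 1509 CPM in MISham libraries. It had 479.9, 110.7, 465.5 and 116.4 CPM in IR libraries, against 747.9, 739.4, 1106 and 1619 CPM in IRSham libraries. Its log2 fold changes were -2.29 ± 0.48 in MI and -1.85 ± 0.48 in IR. mt-Co3 had the largest fold change of the 10 members in MI, -2.97 ± 0.50, at 12.7% of the MISham mean, and one of -2.14 ± 0.48 in IR. Of the counts of mt-Co3 and its copy Gm28437 together, the copy held 47.2 ± 15.8% in MI and 34.6 ± 6.24% in MISham. The rank of mt-Co3 may therefore depend on how shared reads were placed.

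mt-Atp6, the subunit of ATP synthase that forms the proton path, had 150.1, 93.0, 224.6 and 188.5 CPM in MI libraries, against 1054, 667.4, 1023 and 1085 CPM in MISham libraries. In IR libraries it had 273.7, 65.2, 290.1 and 64.3 CPM, against 497.6, 731.3, 699.8 and 771.6 CPM in IRSham libraries. IR replicates 2 and 4 were lowest of all 16 libraries for this gene. Its log2 fold changes were -2.55 ± 0.48 in MI and -1.96 ± 0.47 in IR.

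The rRNAs of the mitochondrial ribosome were counted in these poly(A) libraries too. mt-Rnr1, the small subunit rRNA, had 503.9, 466.0, 488.1 and 505.7 CPM in MI libraries, against 2253, 2190, 2030 and 2129 CPM in MISham libraries. Its MI libraries lay close together, while IR libraries had 756.8, 361.6, 697.4 and 299.0 CPM, against 1768, 2129, 1941 and 1630 CPM in IRSham libraries. Its log2 fold changes were -2.13 ± 0.23 in MI and -1.82 ± 0.23 in IR. mt-Rnr2, the large subunit rRNA, averaged 1008 ± 143 CPM in MI and 5277 ± 439 CPM in MISham, a log2 fold change of -2.39 ± 0.26. It averaged 1021 ± 488 CPM in IR and 4160 ± 488 CPM in IRSham, a log2 fold change of -2.03 ± 0.26.

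IR libraries split alike for every member: replicates 1 and 3 were both above replicates 2 and 4 for all 10 members. The SD of log2 CPM within IR ran from 0.36 for mt-Nd1 to 1.23 for mt-Atp6, and within IRSham from 0.08 to 0.54. The summed sarcomere and nuclear respiratory chain lists were ordered the same way in IR. This order had been seen in earlier results of these data.

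The fall did not differ detectably between the injuries. In the test of the difference of the MI and IR responses, 0 of 10 members were called by edgeR, where 0.192% of all genes were, and 0 of 10 had an unadjusted p under 0.05. DESeq2 also called 0 of 10, with 0 at an unadjusted p under 0.05. The point estimates were below 0 for 10 of 10 members, from -0.24 ± 0.27 for mt-Nd1 to -0.83 ± 0.65 for mt-Co3 on the log2 scale. The MI and IR comparisons share no library. In TPM, the transcript table described further on, limma called 0 of 9 members tested for this difference, where 0.084% of transcripts were called, and 1, mt-Co3, had an unadjusted p under 0.05, with -0.80 ± 0.25 and a limma adjusted p of 0.258.

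The sham groups were tested in the same way. In MISham against IRSham 0 of 10 members were called, where 3.2% of all genes were, and 0 had an unadjusted p under 0.05 by edgeR or by DESeq2. MISham means were 109.2% to 141.8% of IRSham means, and the libraries did not overlap for 1 of 10 members, mt-Co1, named after its values were seen, where 8.84% of all genes tested did not overlap in either direction.

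The members together held 2.42 ± 0.390% of counts in MI and 7.98 ± 0.415% in MISham, and 2.59 ± 0.767% in IR and 7.00 ± 0.230% in IRSham (SD, n = 4 each). Neither pair overlapped. The exact two-sided permutation test gave p = 0.0286 for each, the smallest 4 against 4 libraries allow, and 0.0643 after adjustment over the 9 tests of summed levels, so no such test passes an adjusted threshold of 0.05. MISham libraries were also all above IRSham libraries, by 0.98 percentage points, with the same p-values.

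Relative to sarcomere and nuclear respiratory chain genes, injured and sham libraries overlapped when all were kept. The log2 ratio of the member sum to the sum of 12 sarcomere genes averaged -0.02 ± 0.23 in MI and 0.02 ± 0.03 in MISham, a difference of -0.04 (exact permutation p = 0.657). That overlap with MISham rested on MI replicate 1, at 0.29: without it every MI library lay below every MISham library, with a difference of -0.15 and an exact permutation p of 0.0286. Without MI replicate 3 the difference was 0.0402. It averaged -0.22 ± 0.10 in IR and -0.23 ± 0.04 in IRSham, a difference of 0.01 (exact permutation p = 0.857). MI libraries spread most on this ratio, from -0.27 to 0.29. Without IR replicate 3 the IR difference was -0.0330. MISham libraries all lay above IRSham libraries, by 0.25, with an exact permutation p of 0.0286 and an adjusted p of 0.0643. Against the sum of 20 nuclear respiratory chain genes, the log2 ratio differed by -0.08 between MI and MISham (exact permutation p = 0.429) and by -0.09 between IR and IRSham (exact permutation p = 0.0857). The MI difference was -0.15 without MI replicate 1 and -0.0186 without MI replicate 2, and the IR difference was -0.11 without IR replicate 1, with an exact permutation p of 0.0286. A p above the threshold does not show that the ratios were equal. The sums weigh genes by their counts, and Myh6 had the most counts of the sarcomere list. Its log2 fold change was -2.56 in MI. Gene by gene, the median log2 fold change of that list was -1.72 in MI and -1.40 in IR, beside -2.22 and -1.83 for the members. Over the sarcomere list the changes in MI ran from -2.74 to -0.98.

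**Figure D2:**
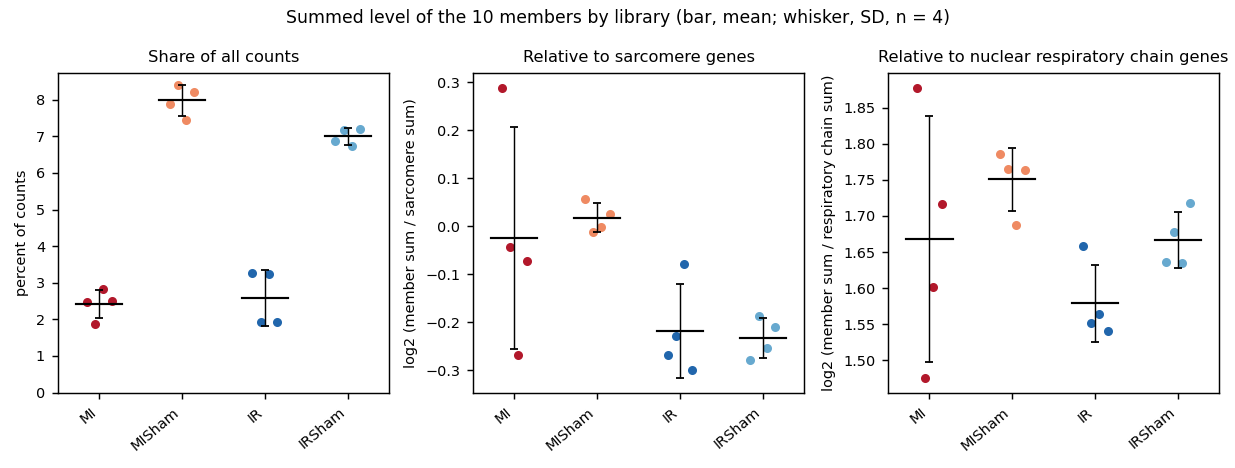
Summed level of the 10 members in each library as percent of all counts (left), as log2 ratio to the sarcomere sum (middle) and to the nuclear respiratory chain sum (right), with means and SD (n = 4 per group). The share of counts parts injured from sham libraries, while on both ratios the injured and sham libraries overlap in each pair, for the sarcomere ratio in MI through the 1 MI library at 0.29.

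Some ratios between members parted MI from MISham libraries. The log2 ratio of the 8 mRNAs to the 2 rRNAs was 3.79, 3.57, 3.94 and 3.68 in MI libraries, against 3.29, 3.55, 3.45 and 3.54 in MISham libraries, a difference of 0.29. The libraries were made from poly(A) RNA, so ratios with the rRNAs are of RNA captured as poly(A), not of all mRNA and rRNA. The log2 ratio of mt-Rnr2 to mt-Rnr1 was lower by 0.27 in MI, at 1.03 ± 0.17 against 1.29 ± 0.06 in MISham. The log2 ratio of complex I to complex IV members was 1.42 ± 0.06 in MI and 1.22 ± 0.07 in MISham, a difference of 0.20. For these 3 ratios MI and MISham libraries did not overlap, with exact permutation p = 0.0286 and 0.0857 adjusted over the 12 ratio tests, so none passed after adjustment. Computed from TPM, the complex I to complex IV ratio also parted MI from MISham. The other 2 gave an exact permutation p of 0.114 and 0.171 in TPM. The complex ratio weighs members otherwise in TPM, where mt-Nd4 was at 0, mt-Nd5 near 0 in some libraries and mt-Co2 highest. It is therefore not the same quantity as in counts. In IR the count differences had the same signs, 0.33, -0.23 and 0.17, with overlapping libraries and exact permutation p of 0.114, 0.0571 and 0.171. Computed from TPM, the last 2 of these turned round in IR, to 0.33 for mt-Rnr2 over mt-Rnr1 and -0.0738 for complex I over complex IV. Without single libraries the IR difference of complex I over complex IV ran from 0.0937 to 0.24, the lowest without IR replicate 2 and the highest without IR replicate 1, where the exact permutation p was 0.0286. mt-Nd5 relative to mt-Nd1 differed by -0.35 in MI (exact permutation p = 0.0571) and -0.26 in IR (exact permutation p = 0.114). In IR, the overlap for that ratio and for mt-Rnr2 over mt-Rnr1 rested on IR replicate 3, at -0.0692 and 1.11. Without that library every IR library lay below every IRSham library on both, with differences of -0.36 and -0.29. mt-Rnr2 over mt-Rnr1 was also higher by 0.14 in MISham than in IRSham, with no overlap (exact permutation p = 0.0286, adjusted 0.0857).

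**Figure D3:**
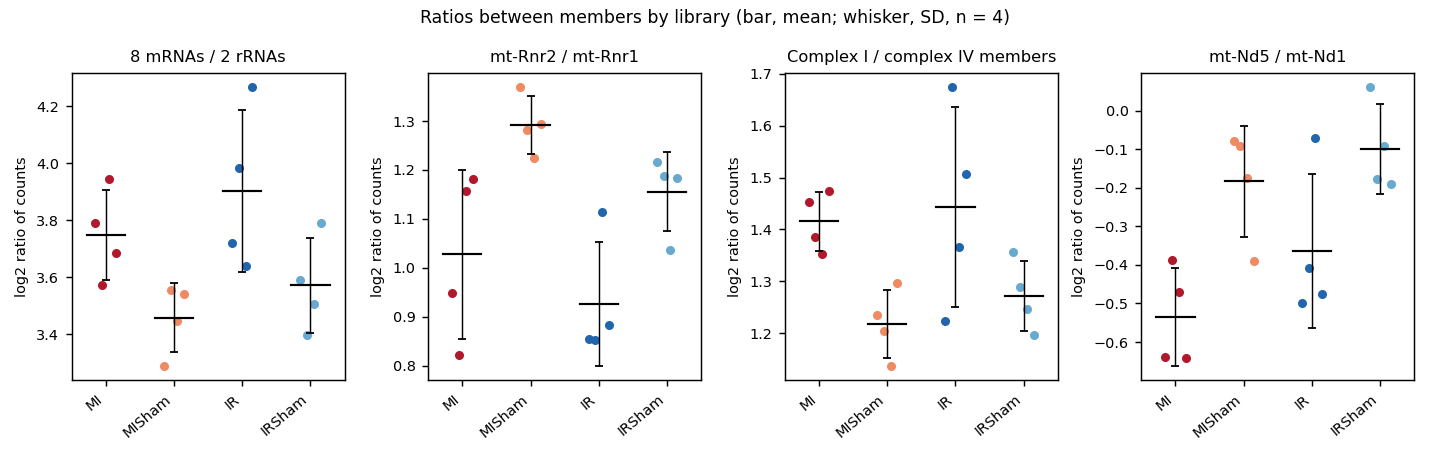
Ratios between members in each library, as log2 of the ratio of counts, with means and SD (n = 4 per group). MI points lie apart from MISham points in the first 3 panels, while IR and IRSham points overlap in all 4. In the last 3 panels that overlap comes from a single IR library.

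As shares of the member sum, mt-Nd1 held 30.9 ± 1.24% in MI and 26.0 ± 1.51% in MISham, with no overlap, an exact permutation p of 0.0286 and 0.286 after adjustment over 30 tests. mt-Rnr2 held 4.65 ± 0.390% in MI and 5.94 ± 0.520% in MISham, with the same p-values. No other share parted its groups in any comparison. mt-Nd1, mt-Nd5 and mt-Co1 each held over 20% of the member sum in every library.

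Levels between members can be compared only per length. Per kilobase of the gene model used in the count table, mt-Nd1 was highest in each group, with 5307 CPM per kb in MI and 18266 in MISham, and 5414 in IR and 15765 in IRSham. mt-Co1, mt-Nd2 and mt-Nd5 followed in that order in every group, then mt-Rnr2 and mt-Rnr1. In MI the ranges of mt-Co1 and mt-Nd2 overlapped, and in IR those of mt-Co1 and mt-Nd2 and of mt-Nd2 and mt-Nd5, while in both sham groups these neighbours did not overlap. Those of mt-Rnr2 and mt-Rnr1 overlapped in MI and IR but in neither sham group. mt-Atp6, mt-Co2, mt-Co3 and mt-Nd4 were lowest, with 62.2 to 240.9 CPM per kb in MI and 339.8 to 1406 in MISham. In each group their ranges overlapped between neighbours, except that mt-Nd4 lay apart below the next in both sham groups. In IR the range of mt-Rnr1 also overlapped that of mt-Atp6. Those 4 are the members with the most bases shared with a chromosome 1 copy, though Gm10925, the copy of mt-Atp6, was listed at 0 counts. The gene models of mt-Co2, mt-Co3 and mt-Nd4 had 1912, 1200 and 1987 bases, against 684, 784 and 1378 in their transcripts. Models of mt-Nd1, mt-Nd2, mt-Nd5 and mt-Co1 were longer than their transcripts too. The part of shared bases or model length in these levels was not tested.

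The transcript table gave another order. It holds TPM, abundances scaled to 1 fixed sum per library, by transcript. There mt-Co2 was highest in each group, with 23768 ± 3246 TPM in MI and 53116 ± 1820 in MISham, and 25209 ± 5352 in IR and 50024 ± 1514 in IRSham. mt-Atp6 had 9980 ± 1686 TPM in MI and 14823 ± 1047 in MISham, and mt-Nd1 had 9890 ± 1438 TPM in MI and 18604 ± 1300 in MISham. The ranges of these 2 members overlapped in MI, while in MISham mt-Nd1 lay above mt-Atp6. mt-Nd4 was listed at 0 TPM in this table to the precision printed, and mt-Nd5 ranged from 0 to 570 TPM in MISham, with values near 0 in at least 1 library of each group. Both are among genes that every cardiomyocyte uses, so a value at 0 can be a failed estimate. mt-Rnr2 had 1 other transcript of equal length in the table whose TPM was the same within a share of 0.001 of the value.

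**Figure D4:**
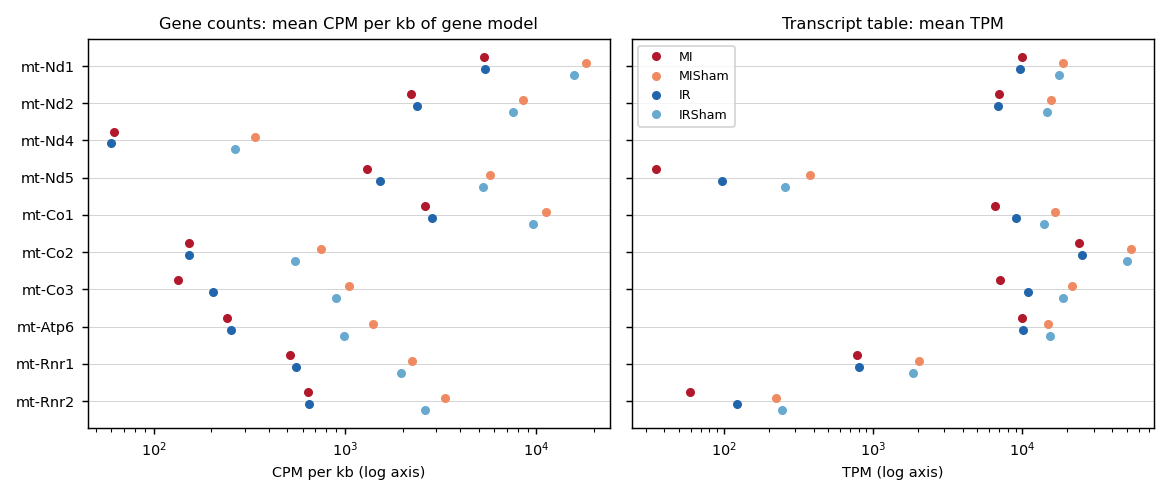
Mean level of each member by group, as CPM per kb of gene model (left) and as TPM (right), on log axes. mt-Co2, mt-Co3 and mt-Atp6 are low on the left and high on the right, mt-Nd5 is the other way round, and mt-Nd4, at 0 TPM, has no point on the right.

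In TPM most members tested also fell. Together they held 6.51 ± 0.811% of TPM in MI and 14.3 ± 0.638% in MISham, and 7.29 ± 1.64% in IR and 13.3 ± 0.266% in IRSham (SD, n = 4 each). Of the 9 members tested, limma on log2(TPM + 1) called 8 lower in MI against MISham, where 10.1% of 40489 transcripts were, and 7 lower in IR against IRSham, where 9.23% were. The median over all transcripts was 0.60 in MI and 0.48 in IR, not near 0 as for counts, so TPM changes stand relative to that. mt-Nd1 fell, with log2 fold changes of -0.92 ± 0.14 in MI and -0.87 ± 0.14 in IR. mt-Co2 had -1.17 ± 0.17 in MI and -1.01 ± 0.17 in IR, and mt-Atp6 had -0.58 ± 0.15 in MI and -0.61 ± 0.15 in IR. mt-Co3 had -1.62 ± 0.18 in MI and -0.83 ± 0.18 in IR. mt-Nd5 was not called in MI (-4.92 ± 2.60) or IR (-2.72 ± 2.60), and mt-Rnr2 was not called in IR, with -0.95 ± 0.44 and a limma adjusted p of 0.0859. In MISham against IRSham limma called 0 of 9, where 0.0198% of transcripts were called, and 0 had an unadjusted p under 0.05.

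**Figure D5:**
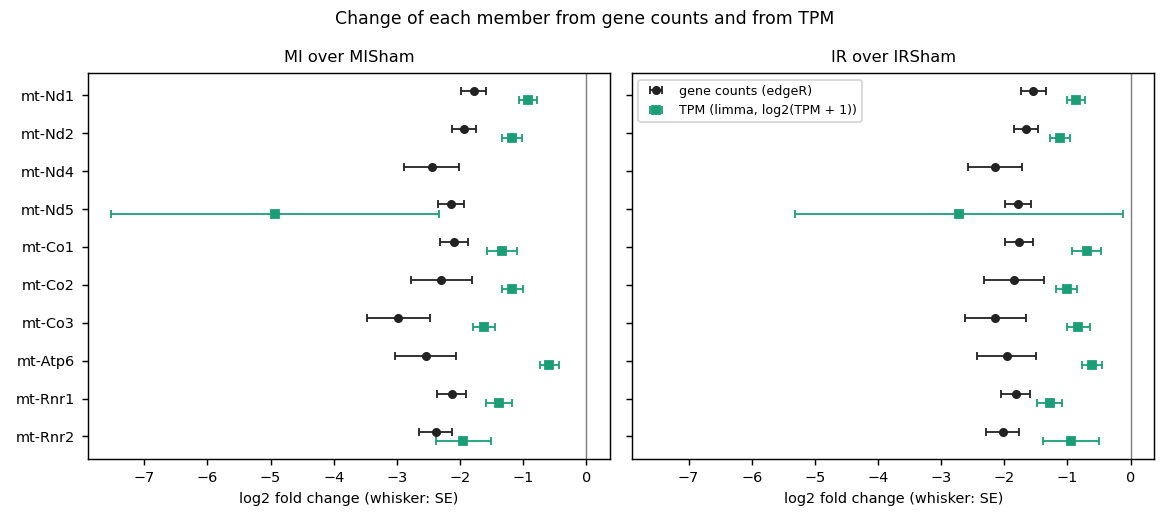
Log2 fold change of each member with its SE, from gene counts by edgeR (circles) and from TPM by limma (squares), for MI over MISham (left) and IR over IRSham (right). All points lie below 0, the TPM points of most members lie nearer to 0, and mt-Nd5 has very wide errors in TPM.

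Of the chromosome 1 copies, 4 had enough counts to be tested. All 4 were called lower in MI and in IR, where 30.2% and 28.2% of all genes were. Of the counts of mt-Co2 and Gm28661 together, Gm28661 held 37.5 ± 1.93% in MI and 39.9 ± 4.94% in MISham, and 39.6 ± 4.97% in IR and 45.7 ± 7.82% in IRSham. Gm28437 held 47.2 ± 15.8% of its pair with mt-Co3 in MI and 34.6 ± 6.24% in MISham, and 33.6 ± 11.3% in IR and 28.3 ± 6.62% in IRSham. Gm28439 held 29.7 ± 6.72% of its pair with mt-Nd4 in MI and 31.0 ± 5.30% in MISham. Gm29216 held 1.73 ± 0.550% of its pair with mt-Co1 in MI and 3.47 ± 1.54% in MISham. Gm10925, the copy of mt-Atp6, was listed at 0 counts in all libraries. The log2 fold changes of the 4 in MI, from counts, were -3.05 ± 0.61 for Gm29216, -2.51 ± 0.47 for Gm28439, -2.41 ± 0.39 for Gm28661 and -2.13 ± 0.57 for Gm28437. In TPM the copies moved otherwise. Of 4 pseudogenes tested there, Gm10925, Gm28437, Gm28661 and Gm28438, limma called 1 lower in MI and 1 lower in IR, and 0 higher. Of all transcripts 10.1% were called lower in MI and 9.23% in IR. Gm10925 had 20.9 to 631.9 TPM in MI and 3281 to 8449 TPM in MISham, and it was the one called in MI, at -4.85 ± 0.88 (limma adjusted p = 0.000252). Gm28437 had 1.05 ± 0.63 in MI, not called, and -2.01 ± 0.63 in IR, called (limma adjusted p = 0.0149). Gm28661 had 0.80 ± 1.26 in MI and -3.00 ± 1.26 in IR, and Gm28438 had 0.58 ± 2.55 in MI and -3.23 ± 2.55 in IR, none called. With each copy's counts added to its member, 10 of 10 members were again called lower in both comparisons.

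Other mitochondrially encoded genes had few or no counts. Of the 37 listed, 11 had a count in some library, and the 10 members held at least 99.991% of all mitochondrial counts in each library. mt-Cytb, mt-Nd3, mt-Nd4l and mt-Nd6 were listed at 0 counts throughout, as were 22 of 22 tRNA genes. In TPM these mRNAs lay well above 0 in MI and MISham. mt-Cytb had 4166 to 5634 TPM in MI and 8431 to 10030 TPM in MISham, and mt-Nd3 had 4437 to 8154 and 24263 to 29286 TPM. mt-Nd4l had 4668.5 to 8625 and 8481 to 13202.5 TPM, and mt-Nd6 had 2163 to 2900 and 4465 to 5588 TPM. Like mt-Rnr2, mt-Cytb had 1 other transcript of equal length whose TPM was the same within a share of 0.001, so its level is uncertain. limma called mt-Cytb, mt-Nd3 and mt-Nd6 lower in MI and in IR, where 10.1% and 9.23% of transcripts were. mt-Nd4l was called lower in IR only. Its IR libraries had 8638, 0, 2719 and 0 TPM, against 3342, 4715, 8166 and 11723.5 TPM in IRSham libraries. The values at 0 can be failed estimates, and IR replicate 1 lay above IRSham replicates 1 and 2, so that call is uncertain. mt-Atp8, which overlaps mt-Atp6 by 43 bases, had 0.55 to 1.59 CPM in MI and 1.26 to 3.74 CPM in MISham. It was called lower in MI (-1.60 ± 0.57) and in IR (-2.79 ± 0.61) by edgeR, and the MI call was lost with no filter on low counts, with library size alone, without MISham replicates 1 and 3, and without MI replicate 1, 2 or 4 or MISham replicate 1 or 3 singly.

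Nuclear respiratory chain genes fell with the members. All 20 of 20 were called lower in both comparisons, where 30.2% of all genes were in MI and 28.2% in IR. Their median log2 fold change was -1.88 in MI and -1.57 in IR. The largest were Cox6a2 and Cox7a1, the heart and muscle forms of cytochrome oxidase subunits, at -2.49 ± 0.28 and -2.47 ± 0.36 in MI and -2.21 ± 0.28 and -2.20 ± 0.36 in IR. Ndufs1, a complex I iron-sulfur subunit, had -2.10 ± 0.18 in MI, and Sdha, the flavoprotein of complex II, had -2.06 ± 0.17 in MI and -1.75 ± 0.17 in IR. In IR the third was Ndufv1, the NADH-binding subunit of complex I, at -1.76 ± 0.19, ahead of Sdha.

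Of the genes for mitochondrial gene expression, 39 of 40 listed were tested. In each of MI and IR 25 were called lower, 4 higher and 10 not called, where 30.2% and 34.8% of all genes were called lower and higher in MI and 28.2% and 29.5% in IR, with a median log2 fold change of -0.46 in MI and -0.55 in IR, smaller than those of the members. Ppargc1a, a coactivator of mitochondrial gene programs, fell, with log2 fold changes of -2.54 ± 0.33 in MI and -2.13 ± 0.33 in IR. Its relative Ppargc1b had -1.56 ± 0.21 in MI and -1.93 ± 0.22 in IR. Lrpprc, which binds and stabilises mitochondrial mRNAs, had -1.78 ± 0.13 in MI and -1.61 ± 0.13 in IR. Mterf2 had -1.65 ± 0.23 in MI, and Hsd17b10, a subunit of mitochondrial RNase P, had -1.37 ± 0.12 in IR. The 4 called higher in both were Rexo2, Pde12, Nrf1 and Gabpb1, named after their values were seen, with log2 fold changes of 0.82, 0.61, 0.57 and 0.54 in MI. With library size in place of TMM, 7 were called higher in MI.

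By a fixed rule, the 5 genes whose log2 CPM followed the mean of the 8 mRNA members most closely over the 16 libraries were Gm28661, Plin5, Acsl1, Fitm2 and Doc2g, with Pearson r of 0.993 to 0.994 among 5849 genes with a mean log2 CPM of at least 5. Libraries of injured and sham groups form separate clusters, so these values describe the split as well as any finer likeness. Gm28661 matches mt-Co2, 1 of the 8 mRNAs, over all its 681 bases, and such copies were not left out. Its likeness therefore cannot be told apart from shared reads.

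Markers of cell types also changed, in directions that differed between the lists. Over all genes tested, 34.8% were called higher and 30.2% lower in MI against MISham, and 29.5% higher and 28.2% lower in IR against IRSham. Cardiomyocyte markers were called lower for 10 of 10 genes in both comparisons, with summed levels of 16572 to 29614 CPM in MI and 89096 to 104347 CPM in MISham, and 17874 to 35578 CPM in IR and 93924 to 99521 CPM in IRSham. Macrophage markers were called higher for 8 of 8 genes in MI and 7 of 8 in IR, with summed levels of 2412 to 3407 CPM in MI and 530.2 to 1279 CPM in MISham, and 2740 to 4896 CPM in IR and 979.2 to 1600 CPM in IRSham. Neutrophil markers were called higher for 5 of 5 in MI and 3 of 5 in IR. That count was 3 in MI with no filter and without MI replicate 3 or MISham replicate 1, 2 or 4, and 1 in IR without IRSham replicate 1. Fibroblast markers were called higher for 4 of 5 and lower for 1 of 5, Dcn, in MI, and higher for 4 of 5 in IR, with summed levels of 14583 to 18278 CPM in MI and 1901 to 6826 CPM in MISham, and 18262 to 21667 CPM in IR and 4553 to 6736 CPM in IRSham. Endothelial markers were called lower for 2 of 4 and higher for 2 of 4 in MI, and lower for 2 and higher for 1 of 4 in IR. The IR call higher was Pecam1, named after its values were seen, at 0.23 ± 0.09, and it was lost with the replicate block and without most single libraries. Of the erythroid markers edgeR called 0 of 4 in both comparisons, with 0 in MI and 1 in IR at an unadjusted p under 0.05, and DESeq2 called 0 in MI and 1 in IR. Of the skeletal muscle markers 3 of 3 tested were called higher in MI and 2 of 3 in IR, where 1 was left without IR replicate 1 or 2, IRSham replicate 1, 3 or 4, or MI replicate 1 or 4. Of those tested, Tnnt3 and Tnni2 had at most 14.8 and 4.26 CPM in any library. Acta1 had 159.9 to 436.3 CPM in MISham and 488.1 to 898.9 CPM in IRSham, so it was well above 0 in sham hearts. Myh4, also on the skeletal muscle list, had too few counts to be tested, with 2 in IR replicate 4 and 0 elsewhere. These calls do not show that skeletal muscle cells were present. Of the atrial markers 1, Nr2f2, was tested and called higher in both. Myl7 had 0 to 0.37 CPM and Sln was at 0 throughout. The part of these markers in the members' fall was not tested.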

How the data were processed

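The 16 short-read libraries of poly(A) heart RNA have a deposited table of raw gene counts and a deposited table of transcript TPM. The submitters' processing notes name GRCm39 and the tools kallisto 0.50.1, featureCounts 2.0.1, SAMtools 1.7 and HISAT2 2.2.1; their roles, strand and multi-mapping settings are not given in the sources used here. The 4 long-read libraries were not analysed here, and 2 TPM-table columns that name no sample were not used. Symbols came from GENCODE M21 by ID (52080 of 53633 Ensembl genes).

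The count test used edgeR 4.0.16 under R 4.3.3 (TMM, filterByExpr with minimum count 10 and total 15, robust quasi-likelihood fit over 16 libraries), and TPM with limma 3.58.1 on log2(TPM + 1) for transcripts with a mean of at least 1. Benjamini-Hochberg adjustment ran over all features. Library measures had exact two-sided permutation tests. DESeq2 1.42.0 was an alternative. The tests were checked on simulated data. All 10 members are named in every contrast, and for other lists the 4 largest changes called. Members, lists and tests were chosen with earlier results of these data known. No pairing by replicate number was seen, as deviations of same-numbered libraries correlated between -0.15 and 0.06. Such values cannot show that there was none.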

Additional observations from a re-analysis of the deposited data

Results flagged for a closer look

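Of 144 groups of 4 libraries checked, 8 had 1 library far from the other 3, about as many as chance gives at 1 in 20. In counts these were mt-Co2 in MISham replicate 1, with 1195 CPM, mt-Atp6 in MISham replicate 2, with 667.4 CPM, and the log2 ratio of mt-Rnr2 to mt-Rnr1 in IR replicate 3, at 1.11. In TPM they were mt-Nd1 in MI replicate 2 (7752 TPM), mt-Nd2 in MISham replicate 3 (14682 TPM), mt-Nd5 in MI replicate 2 (140.0 TPM) and in IR replicate 3 (361.6 TPM), and mt-Co3 in MISham replicate 4 (25229 TPM).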

How the results depend on the processing

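The counts of members called by edgeR, 10 in MI against MISham, 10 in IR against IRSham, 0 in the difference of the responses and 0 in MISham against IRSham, were the same with DESeq2, library size alone, nuclear genes only for scaling, no filter, the replicate block, copy counts added, and without each library in turn. They were also the same without IR replicates 1 and 3 and without MISham replicates 1 and 3, alternatives added after seeing the data. Library size alone moved the all-gene median log2 change to 0.39 in MI and 0.32 in IR, and the share of calls that were higher to 68.6% and 69.1%, against 53.5% and 51.1% with TMM. The replicate block left 10 and 10 members called, and changed TPM calls in IR from 7 to 8. No pairing by these numbers was seen. In TPM, leaving out libraries gave 8 to 9 calls in MI and 6 to 8 in IR, and no filter gave 6 in IR.

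IR replicates 1 and 3 were picked because their member levels were the higher ones, so leaving them out deepens the IR fall by construction and is no check of the difference of the responses. The values without them, none called, were mt-Nd1 0.0621, mt-Nd2 0.0608, mt-Nd4 0.77, mt-Nd5 0.0483, mt-Co1 0.17, mt-Co2 0.89, mt-Co3 0.0383, mt-Atp6 0.81, mt-Rnr1 0.33 and mt-Rnr2 0.37. Without single libraries that of mt-Nd4 ranged from -0.58 to 0.28.

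TPM in place of counts left 1 ratio with an exact p under 0.05 in MI, 0 in MISham against IRSham, and 2 member shares in IR. It reversed the difference of mt-Rnr2 over mt-Rnr1 in IR (0.33) and MISham against IRSham (-0.15), and of complex I over complex IV in IR (-0.0738). It reversed the member shares of mt-Nd1 (-0.28), mt-Nd5 (0.0760), mt-Co2 (-0.57), mt-Atp6 (-1.20) and mt-Rnr2 (-0.0288 percentage points) in MISham against IRSham, of mt-Nd2 (-0.25) and mt-Atp6 (4.89 percentage points) in MI, and of mt-Nd2 (-1.61), mt-Co1 (1.68), mt-Co3 (0.65) and mt-Atp6 (2.50) in IR. The cause was not tested. mt-Nd4, at 0 TPM, has no TPM share, and ratios to nuclear lists were not run in TPM.

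Without single libraries, the member share of counts differed by 0.841 to 1.16 percentage points in MISham against IRSham. The log2 ratio to the sarcomere sum differed by -0.145 to 0.0402 in MI and -0.0330 to 0.0401 in IR, and that to the respiratory chain by -0.153 to -0.0186 in MI and -0.114 to -0.0710 in IR. Without MI replicate 1 the sarcomere difference of -0.15 had an exact permutation p of 0.0286. Ratios with an exact p under 0.05 numbered 1 to 3 in MI, 0 to 2 in IR and 0 to 1 in MISham against IRSham, and member shares 1 to 4, 0 to 1 and 0 to 1. Differences of shares that changed sign ranged from -0.58 to 0.58 for mt-Nd1, -0.21 to 0.54 for mt-Co1, -0.16 to 0.28 for mt-Co3 and -0.112 to 0.0852 for mt-Rnr1 in MISham against IRSham, and from -0.289 to 0.0146 for mt-Rnr1 in MI. In TPM, MISham against IRSham ranged from -1.58 to 2.72 for mt-Nd5 and from -0.47 to 0.17 for mt-Rnr2.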
